A study of Mus musculus with 12 samples.

Results

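The genes described here are 10 genes of the interleukin-1 (IL-1) and inflammasome system: the cytokines Il1b, Il1a and Il18, the receptor antagonist Il1rn, the receptors Il1r1 and Il1r2, and the inflammasome and processing genes Nlrp3, Pycard, Casp1 and Gsdmd. They were chosen by symbol from the 46078 genes of the count table, and each of the 10 matched 1 row. Levels of RNA were measured by sequencing of spinal cord white matter from C57Bl6 mice, cut from frozen sections with a laser under the microscope (laser capture). The 4 groups combined 2 ages (young, middle-aged) with 2 states (naïve, injured), and each had 3 sequenced pools of RNA from 5 mice. Young mice were 6 weeks and middle-aged mice 8 months old, and the methods for the lesion model describe the mice as female. Injured tissue was taken 72 h after lysolecithin, a detergent-like lipid that strips myelin, had been injected into the ventrolateral white matter, and naïve mice had no lesion, so that an effect of lysolecithin and an effect of the surgery cannot be told apart. Replicates are these pools, and how far single mice differed within them was not measured.

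IL-1α and IL-1β are made by 2 neighboring genes and act on the same receptor, IL1R1, which signals through MyD88 and NF-κB to switch on further inflammatory genes. The antagonist encoded by Il1rn occupies that receptor without signaling, and IL1R2 is a decoy that binds IL-1 without passing on a signal. IL-1β and IL-18 are made as inactive precursors that caspase-1 (Casp1) cuts after the sensor NLRP3 and the adaptor ASC (Pycard) have assembled into an inflammasome. Caspase-1 also cuts gasdermin D (Gsdmd), whose freed end forms pores through which cytokines leave the cell, whereas IL-1α is active without this step. In the central nervous system microglia and infiltrating monocytes and macrophages are well-known sources of IL-1. These steps act on proteins, and only RNA levels were measured here.

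On GRCm38 the cytokine genes lie at chr2:129364570-129371139 (Il1b, minus strand), chr2:129299610-129309972 (Il1a, minus strand) and chr9:50554827-50581840 (Il18), with Il1rn at chr2:24336853-24351494. The receptor genes are neighbors at chr1:40225080-40317257 (Il1r1) and chr1:40074079-40125231 (Il1r2). The inflammasome genes lie at chr11:59541568-59566956 (Nlrp3), chr7:127989708-127993867 (Pycard, minus strand), chr9:5298517-5307265 (Casp1) and chr15:75862327-75867408 (Gsdmd), and all 10 are protein-coding. Reads were counted per gene, without regard to which exon they came from.

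The starts of the cytokine genes are shown because Il1b and Il1a rose and Il18 fell in the lesion. Each run gives the 250 bases before the RefSeq start on GRCm38.p6, read 5′ to 3′ on the gene's own strand, at chr2:129371140-129371389 (minus strand) for Il1b, chr2:129309973-129310222 (minus strand) for Il1a and chr9:50554450-50554699 (plus strand) for Il18. Capitals mark matches, on either strand, to TATAAA (the core of a TATA box), TGANTCA (AP-1), TTGCNNAA (C/EBP), GAGGAA (PU.1 or ETS) and the NF-κB consensus.
Il1b: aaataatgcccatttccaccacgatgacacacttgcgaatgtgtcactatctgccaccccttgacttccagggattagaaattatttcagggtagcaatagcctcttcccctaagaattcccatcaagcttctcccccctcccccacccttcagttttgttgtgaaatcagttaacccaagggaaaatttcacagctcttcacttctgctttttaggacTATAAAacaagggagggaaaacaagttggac
Il1a: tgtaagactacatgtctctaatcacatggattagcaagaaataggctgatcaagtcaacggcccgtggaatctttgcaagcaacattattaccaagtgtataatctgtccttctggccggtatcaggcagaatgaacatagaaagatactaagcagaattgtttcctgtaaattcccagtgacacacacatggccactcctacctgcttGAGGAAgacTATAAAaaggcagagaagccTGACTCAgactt
Il18: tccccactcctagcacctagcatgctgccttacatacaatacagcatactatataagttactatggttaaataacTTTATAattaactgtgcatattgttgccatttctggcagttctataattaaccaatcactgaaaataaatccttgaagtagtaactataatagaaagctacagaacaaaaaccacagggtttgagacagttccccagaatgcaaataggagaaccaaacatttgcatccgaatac
Il1b and Il1a each held TATAAA on the gene's strand just before the start, at positions -31 to -26 and -32 to -27, and 2.63% of all 32851 windows held it on that strand within the last 50 bases. Il18 had none there, and its only match was a TATAAA on the opposite strand at -175 to -170. Its RefSeq start lies before the gene start given above, and the bases between the 2 starts were not searched. Il1rn, Il1r1, Nlrp3, Pycard and Casp1, which also rose, held no TATAAA in their windows. Il1a also held GAGGAA at -41 to -36 and an AP-1 match at -12 to -6. Over the 250 bases and both strands, TATAAA was in 12.4% of all windows, TGANTCA in 6.75%, TTGCNNAA in 9.56%, GAGGAA in 23.3% and the NF-κB consensus in 7.25%. Windows were given for 9 of the 10 genes (13 windows), and of these 9 genes 3 held TATAAA, 2 TGANTCA, 2 TTGCNNAA, 4 GAGGAA and 2 the NF-κB consensus. The NF-κB matches lay before 1 of the starts of Il1r1 and 1 of the starts of Nlrp3. A match is a run of letters and was not tested as a binding site.

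Pools held 9834447 to 12807437 counts, so that 3 counts, the limit that a count of 0 allows, stood for 0.234 to 0.305 counts per 1000000 (CPM). Levels are CPM scaled by TMM (trimmed mean of M values) factors, given as mean ± SD over 3 pools, and these limits and the intervals of single pools cover counting error only. The 5 oligodendrocyte markers (Mbp, Mog, Mag, Mobp and Cldn11) summed to 36648 to 39601 CPM in the young naïve pools and 24569 to 30297 CPM in the middle-aged naïve pools. They fell to 10042 to 10147 CPM in the young injured and 4255 to 6836 CPM in the middle-aged injured pools. Pan-myeloid markers (Ptprc, Itgam, Aif1, Cd68, Tyrobp and Csf1r) went the other way, from 71.8 to 102 CPM in the young and 110 to 147 CPM in the middle-aged naïve pools to 1373 to 1394 CPM in the young injured and 1461 to 1950 CPM in the middle-aged injured pools. Neuron markers (Rbfox3, Snap25, Syt1 and Slc17a6) summed to 681 to 1976 CPM in the young naïve and 1167 to 1239 CPM in the middle-aged naïve pools. In injured pools they summed to 275 to 480 CPM in young and 363 to 446 CPM in middle-aged mice. How much gray matter the pools held was not tested. In bulk tissue, fewer cells of a type and less RNA per cell cannot be told apart. Middle-aged naïve replicate 2 stood apart from its group, with high counts of Il1rn, Gsdmd and Il1r2, and results that rest on it are also given without it.

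**Figure D1:**
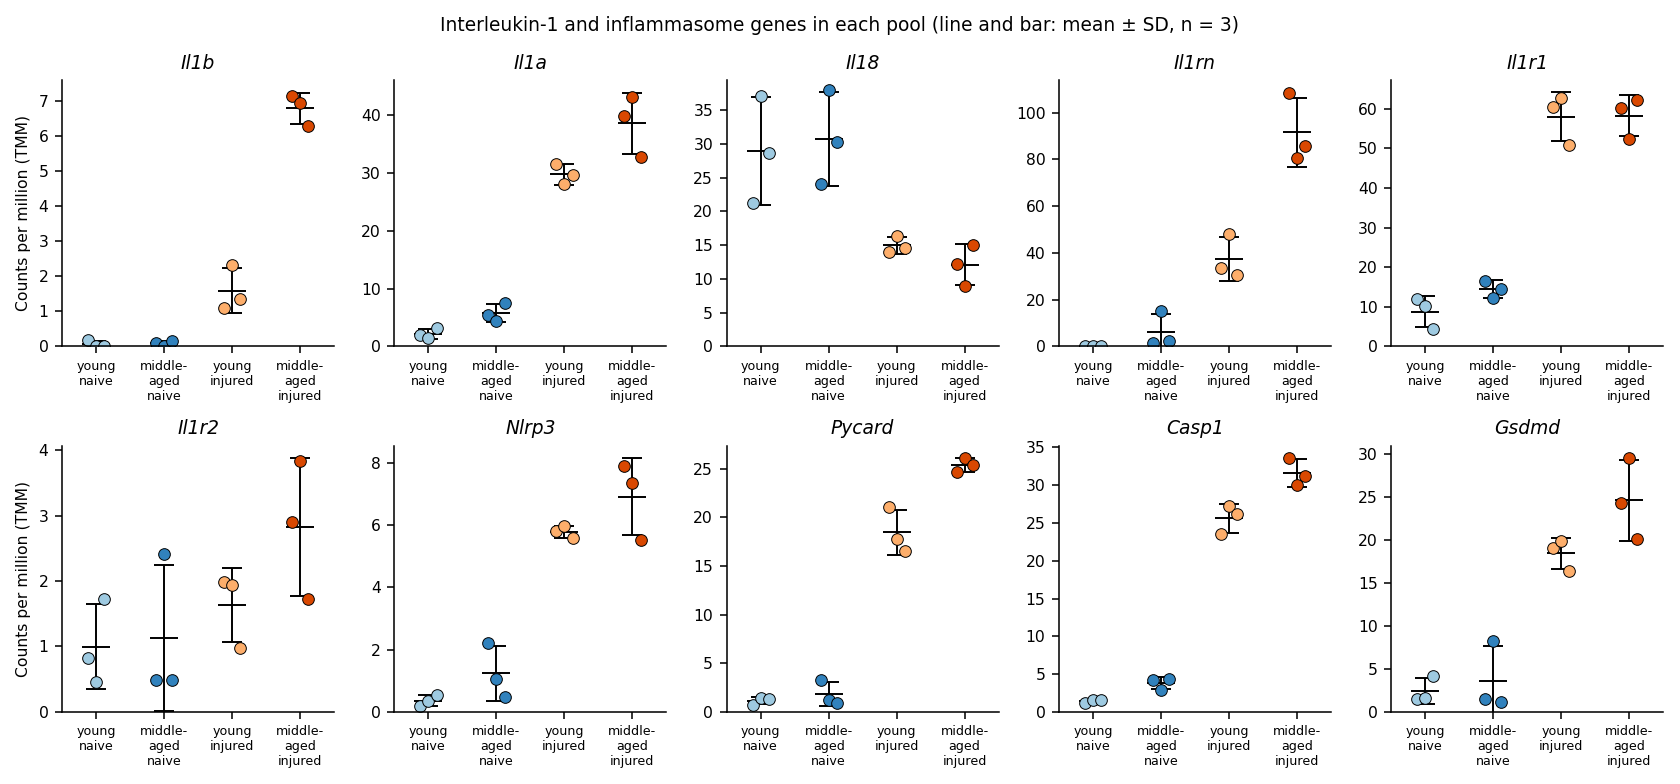
Level of each of the 10 genes in each pool, in TMM-scaled CPM on a linear axis from 0 that differs between panels. Points are pools, and the line and bar are the mean ± SD of 3 pools, with bars cut off at 0. Il18 was lower in the injured pools, Il1r2 overlapped between groups, and the other 8 genes were higher in every injured pool than in any naïve pool of the same age.

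In young mice 9 of the 10 genes passed the threshold (adjusted p under 0.05) between injured and naïve white matter, 8 higher and 1 lower, where 28.3% of all 15866 genes tested were called higher and 26.3% lower. In middle-aged mice the count was again 8 higher and 1 lower of 10, against 29.2% higher and 29.3% lower among all genes. The 8 genes higher at both ages were Il1b, Il1a, Il1rn, Il1r1, Nlrp3, Pycard, Casp1 and Gsdmd, and the gene lower at both was Il18, where 24.5% of all genes were called higher and 22.8% lower at both ages. Il1b and Nlrp3 would not have passed the filter on low counts through their naïve pools alone, so their calls were in part built in. The median log2 difference of the 10 genes was 3.88 in young and 2.76 in middle-aged mice, against 0.00054 and -0.032 for all genes tested. With Il1b and Il1rn taken at the floor of 3 counts per library wherever their naïve pools were at or under it, the medians were 3.35 and 2.76. Tests were edgeR's quasi-likelihood F tests with Benjamini-Hochberg adjustment over all genes tested, and standard errors (SE) are of the log2 difference. All 6 pan-myeloid markers were also higher at both ages, with mean log2 differences of 4.29 in young and 3.51 in middle-aged mice. Set against their mean log2 CPM, Il1a differed after injury by -0.54 in young and -0.79 in middle-aged mice, without overlap. Il1r1 differed by -1.44 and -1.51, without overlap. Nlrp3 (-0.72) and Gsdmd (-1.30) were lower without overlap in young mice only, and Pycard and Casp1 overlapped at both ages. Young naïve pools held 2 to 5 counts of Nlrp3, and the prior count of 2 in log2 CPM narrows a rise from so few. Its -0.72 is therefore no measure of size, and edgeR gave 3.99 for Nlrp3 against the markers' mean of 4.29. Il1b and Il1rn, with a naïve group at the floor, are left out here. The part of the markers in the rise of the 8 genes was not tested.

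Il1b was near absent from naïve white matter. Its counts were 2, 0 and 0 in the young naïve and 1, 0 and 2 in the middle-aged naïve pools, all at or under the limit of 3 counts. After injury they were 15, 30 and 18 in young and 86, 87 and 73 in middle-aged mice, and no injured pool overlapped with a naïve pool. The ratio of pooled CPM (summed counts over summed library totals), injured to naïve, was 28.4 in young mice (63 against 2 counts, 95% interval 7.54 to 240) and 79.3 in middle-aged mice (246 against 3 counts, 26.8 to 387). With 1 pool left out the ratios were 18.3 to 32.7 for the young (18.3 without young naïve replicate 2) and 55.1 to 148 for the middle-aged (148 without middle-aged naïve replicate 3). edgeR gave adjusted p = 0.000195 in young and 2.62e-06 in middle-aged mice. The gene passed the filter on low counts only through its injured groups, so a difference from naïve tissue was built into its being tested.

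Il1a had a measurable level before injury, unlike its neighbor. Its counts were 21, 17 and 29 in young naïve, 57, 42 and 93 in middle-aged naïve, 430, 362 and 394 in young injured and 480, 541 and 380 in middle-aged injured pools. The mean level went from 2.19 ± 0.82 to 29.8 ± 1.75 CPM in young mice, a log2 difference of 3.78 (SE 0.26, edgeR adjusted p = 2.97e-08). In middle-aged mice it went from 5.77 ± 1.54 to 38.6 ± 5.30 CPM, a log2 difference of 2.73 (SE 0.24, edgeR adjusted p = 2.27e-07). The 4 groups did not overlap and ran from young naïve over middle-aged naïve and young injured to middle-aged injured.

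Il18 had the highest level of the 3 member cytokines in naïve tissue and the only member that fell. Its counts were 233, 410 and 266 in young naïve and 251, 362 and 379 in middle-aged naïve pools, against 190, 211 and 194 in young injured and 148, 113 and 174 in middle-aged injured pools. The log2 difference was -0.95 in young mice (SE 0.24, edgeR adjusted p = 0.00351) and in the middle-aged -1.35 (SE 0.24, adjusted p = 0.000251). The TMM-scaled levels of injured and naïve pools did not overlap at either age, while the 2 ages overlapped within each injury state. Of the homeostatic microglia markers P2ry12, Tmem119, Sall1 and Siglech, 1 was called higher and 1 lower in young mice, and 2 were called lower in middle-aged mice, with mean log2 differences of 0.38 and -0.65. Of the 4 astrocyte markers (Gfap, Aqp4, Slc1a3 and Aldh1l1), 3 were called lower and 0 higher at each age, with means of -0.93 and -1.15. All 5 oligodendrocyte markers were called lower and all 6 pan-myeloid markers higher at both ages. The part of these markers in the fall of Il18 was not tested.

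Il1rn, the antagonist, had the widest range of the 10 genes. Counts were 2, 0 and 0 in young naïve pools and 15, 145 and 30 in middle-aged naïve pools, and rose to 460, 619 and 405 in young injured and 1306, 1009 and 994 in middle-aged injured pools. In young mice the ratio of pooled CPM (summed counts over summed library totals), injured to naïve, was 669 (1484 against 2 counts, 95% interval 185 to 5530, edgeR adjusted p = 4.20e-06), and 432 without young naïve replicate 2. In middle-aged mice the log2 difference was 3.89 (SE 0.57, edgeR adjusted p = 4.37e-05), and 5.55 (SE 0.32) without middle-aged naïve replicate 2. The 4 groups did not overlap and stood in the same order as for Il1a.

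The signaling receptor Il1r1 rose at both ages, and the decoy receptor Il1r2 was low in all 4 groups. Il1r1 had 131, 112 and 40 counts in young naïve, 173, 116 and 182 in middle-aged naïve, 822, 809 and 677 in young injured and 725, 656 and 722 in middle-aged injured pools. Its log2 difference was 2.71 (SE 0.27) in young and 2.01 (SE 0.26) in middle-aged mice (edgeR adjusted p of 9.29e-07 and 1.05e-05), and its injured pools reached 58.0 ± 6.20 and 58.3 ± 5.24 CPM at the 2 ages. Il1r2 had 9, 5 and 16 counts in young naïve, 5, 23 and 6 in middle-aged naïve, 27, 25 and 13 in young injured and 35, 48 and 20 in middle-aged injured pools, and every neighboring pair of groups overlapped. Its log2 difference did not pass the threshold in young mice (0.73, SE 0.65, edgeR adjusted p = 0.367) or in middle-aged mice (1.36, SE 0.63, adjusted p = 0.0790). Without middle-aged naïve replicate 2 the latter was 2.54 (SE 0.62, adjusted p = 0.00286). Il1r2, too, would not have passed the filter on low counts through its naïve pools alone. The 2 receptors are compared within each pool further on.

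The sensor Nlrp3 was close to the limit of detection in naïve tissue, with 2, 4 and 5 counts in young and 23, 10 and 6 in middle-aged pools. It had 79, 77 and 74 counts in young injured and 95, 92 and 64 in middle-aged injured pools, and naïve and injured pools did not overlap. The log2 difference was 3.99 (SE 0.50) in young and 2.48 (SE 0.43) in middle-aged mice (edgeR adjusted p of 1.12e-05 and 0.000166). Through its naïve pools alone the gene would not have passed the filter on low counts. A difference from naïve tissue was therefore in part built into its being tested.

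Pycard, the adaptor, had 8, 16 and 12 counts in young naïve and 34, 12 and 12 in middle-aged naïve pools. The injured pools held 287, 229 and 220 counts in young and 297, 327 and 294 in middle-aged mice. Its log2 difference was 3.99 (SE 0.36) in young and 3.80 (SE 0.34) in middle-aged mice (edgeR adjusted p of 4.42e-07 and 3.56e-07). Of its 3800 exonic bases 485 overlap the antisense gene Gm45205, which was not analysed here, and because no strand setting is given for the counting, reads of the pair cannot be told apart.

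Casp1, the protease, had the smallest SE of the 8 genes that rose. Counts were 13, 18 and 14 in young naïve, 44, 28 and 55 in middle-aged naïve, 320, 351 and 348 in young injured and 405, 376 and 362 in middle-aged injured pools, with no overlap between any 2 groups. The log2 difference was 4.15 (SE 0.22) in young and 3.03 (SE 0.19) in middle-aged mice (edgeR adjusted p of 2.07e-09 and 1.20e-08).

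Gsdmd, the pore protein, had 17, 18 and 39 counts in young naïve, 15, 79 and 15 in middle-aged naïve, 259, 256 and 218 in young injured and 292, 369 and 233 in middle-aged injured pools. Its log2 difference was 2.93 (SE 0.56) in young and 2.79 (SE 0.54) in middle-aged mice (edgeR adjusted p of 0.000489 and 0.000478). Without middle-aged naïve replicate 2, the pool with 79 counts, the latter was 4.22 (SE 0.38).

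**Figure D2:**
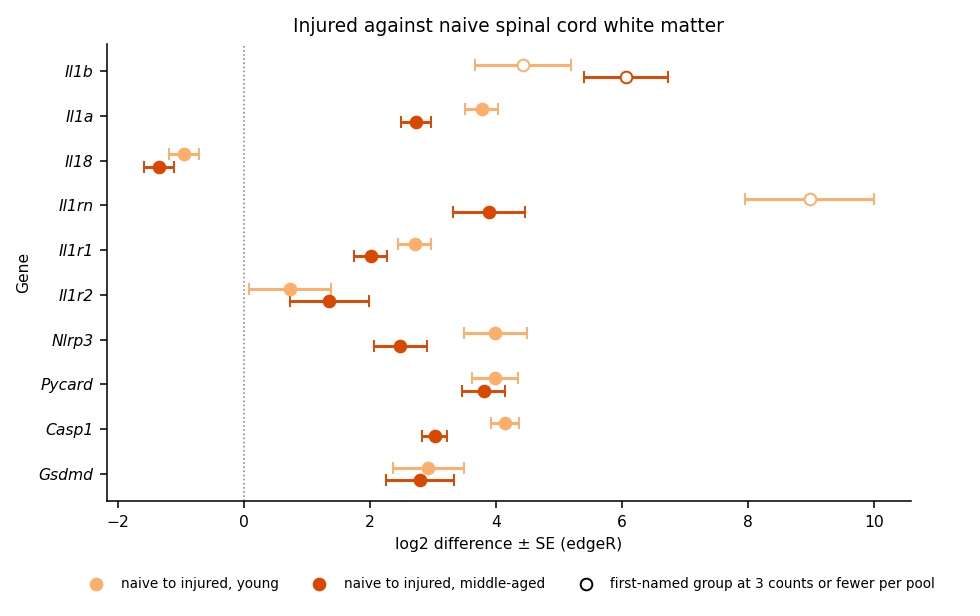
Log2 difference between injured and naïve pools with its SE for each gene, in young and middle-aged mice (edgeR, 3 pools per group). Open circles mark values whose naïve group had 3 counts or fewer in every pool, which depend on the prior count and are no measure of size. Il18 lies below 0 at both ages, Il1r2 in young mice lies closest to 0, and the other 8 genes lie above 0.

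Levels of different genes were compared per kilobase of exon. In young naïve tissue Il18 was the most abundant of the 10, at 28.1 ± 7.74 CPM per kilobase, and the next, Il1r1, was at 1.38 ± 0.63. In middle-aged injured tissue the order was Casp1 (21.1 ± 1.22 CPM per kilobase), Il1a (19.6 ± 2.69), Il1rn (16.5 ± 2.67), Il18 (11.7 ± 2.91), Gsdmd (10.4 ± 1.97), Il1r1 (9.16 ± 0.82), Pycard (6.68 ± 0.19), Il1b (3.56 ± 0.23), Nlrp3 (1.71 ± 0.30) and Il1r2 (1.48 ± 0.55). The means of Casp1 and Il1a, of Il18 and Gsdmd, of Gsdmd and Il1r1 and of Nlrp3 and Il1r2 were closer than the larger SD of each pair. In young injured tissue Il1b, at 0.84 ± 0.34 CPM per kilobase, lay below Nlrp3, at 1.42 ± 0.05.

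The comparison of middle-aged with young injured pools addressed whether the same lesion differs with age. Only Il1b of the 10 genes passed the threshold, 1 of 10 called higher where 0.240% of all genes were called higher and 0.908% lower. Its level was 1.59 ± 0.65 CPM in young and 6.80 ± 0.44 CPM in middle-aged injured pools, a log2 difference of 2.09 (SE 0.46, edgeR adjusted p = 0.0443). The 95% Clopper-Pearson intervals are of CPM by library total, without TMM factors. They were 0.669 to 1.97, 1.67 to 3.53 and 0.866 to 2.31 in the young pools and 5.92 to 9.13, 5.75 to 8.86 and 5.06 to 8.12 in the middle-aged pools. The highest young and the lowest middle-aged interval did not meet. The call was not held in every setting. The adjusted p was above the threshold, at 0.0951 to 0.253, when any 1 of the 6 injured pools was left out and 0.0510 without young naïve replicate 2, while the log2 difference stayed between 1.89 and 2.46.

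Il1rn stood next to Il1b in this comparison. It was at 37.4 ± 9.29 CPM in young and 91.6 ± 14.8 CPM in middle-aged injured pools without overlap, but the log2 difference of 1.29 (SE 0.50, edgeR adjusted p = 0.338) did not pass the threshold. Its spread in the naïve pools, which share the estimate of spread, was wide: without middle-aged naïve replicate 2 the adjusted p was 0.00380, and with only the 6 injured pools in the fit it was 0.00171. None of the other 8 genes passed. The log2 differences were 0.38 (SE 0.21) for Il1a, 0.46 (SE 0.28) for Pycard, 0.30 (SE 0.17) for Casp1 and 0.42 (SE 0.48) for Gsdmd (edgeR adjusted p of 0.679 to 0.954). They were 0.26 (SE 0.37) for Nlrp3, 0.79 (SE 0.60) for Il1r2, 0.0071 (SE 0.24) for Il1r1 and -0.31 (SE 0.24) for Il18. The value of Il1r1 was -0.053 when libraries were scaled by their totals only.

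The pan-myeloid markers were called at neither sign between the injured groups (0 of 6), with a mean log2 difference of 0.29. The 3 monocyte markers (Ccr2, Ly6c2 and Chil3, with 0 called) had a mean log2 difference of 1.20. They summed to 68.8 to 107 CPM in young and 156 to 197 CPM in middle-aged injured pools. Neutrophil markers (S100a8, S100a9, Ly6g, Retnlg, Ngp and Camp) summed to 1.05 to 3.01 CPM in young and 1.92 to 3.07 CPM in middle-aged injured pools, and 4 and 2 of the 6, in that order, had 3 counts or fewer in every pool. The 4 T cell markers summed to 4.14 CPM at most. The part of myeloid or monocyte content in the Il1b difference was not tested by a model. Set against the mean log2 CPM of the 6 pan-myeloid markers, a comparison chosen after the values were seen, Il1b was at -6.22 ± 0.45 in young and -4.45 ± 0.15 in middle-aged injured pools, a difference of 1.77 (SE 0.27) without overlap. On the same scale Il1rn differed by 1.03 (SE 0.23), also without overlap. Casp1 differed by 0.030 (SE 0.13), Il1a by 0.093 (SE 0.11) and Nlrp3 by -0.035 (SE 0.049), each with overlap. Pycard (0.19, SE 0.20), Gsdmd (0.13, SE 0.14), Il1r1 (-0.26, SE 0.22), Il1r2 (0.45, SE 0.38) and Il18 (-0.60, SE 0.32) overlapped too. This scale takes no account of the monocyte markers. The exact 2-sided permutation p was 0.1 for Il1b and for Il1rn, which is the smallest that 3 pools against 3 allow.

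In naïve white matter, middle-aged against young, 3 of the 10 genes were called higher and 0 lower, where 2.02% of all genes were called higher and 1.78% lower. Casp1 went from 1.44 ± 0.23 to 3.85 ± 0.80 CPM, a log2 difference of 1.42 (SE 0.23, edgeR adjusted p = 0.00412). Il1a differed by 1.42 (SE 0.27, adjusted p = 0.0100), and the pools of neither gene overlapped. Il1rn, at 2 counts in all 3 young naïve pools together and 190 in the middle-aged naïve pools, had a ratio of pooled CPM (summed counts over summed library totals) of 93.6 (95% interval 25.6 to 778, adjusted p = 0.00990), and of its 190 counts 145 came from replicate 2, without which the ratio was 31.9 and edgeR adjusted p = 0.00306. The ratio was 60.4 without young naïve replicate 2, and leaving out that pool ended the calls of Il1rn (edgeR adjusted p = 0.0561) and Il1a (adjusted p = 0.0576). With only the 6 naïve pools in the fit none of the 3 calls held, with edgeR adjusted p of 0.218 for Casp1, 0.226 for Il1a and 0.0796 for Il1rn. Nlrp3 (1.76, SE 0.56, edgeR adjusted p = 0.103) and Il1r1 (0.71, SE 0.27, adjusted p = 0.169) did not pass. Pycard (0.65, SE 0.42), Gsdmd (0.55, SE 0.60), Il1r2 (0.16, SE 0.68) and Il18 (0.086, SE 0.23) overlapped between the ages, and for Il1b both groups were at or under 3 counts, so that no fold is given. Without middle-aged naïve replicate 2, Gsdmd was at -0.87 and Il1r2 at -1.01. Pan-myeloid markers were higher here too (4 of 6 called higher, mean log2 difference 1.07), and their part in the rise of Casp1, Il1a and Il1rn was not tested. With only the 6 naïve pools in the fit, 0 members were called in this comparison.

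**Figure D3:**
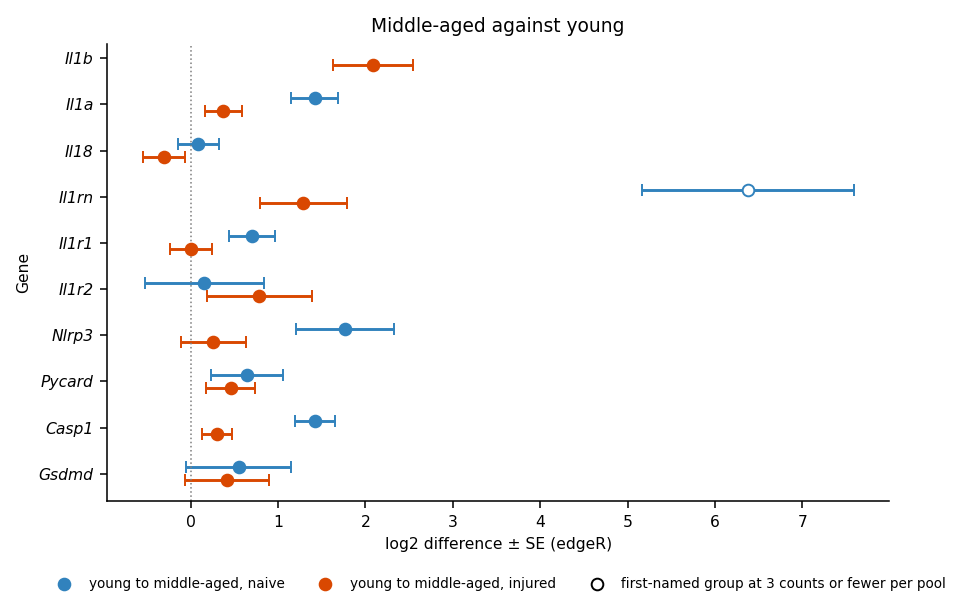
Log2 difference between middle-aged and young pools with its SE for each gene, in naïve and in injured mice (edgeR, 3 pools per group). The open circle marks Il1rn in naïve mice, whose young pools had 3 counts or fewer, and Il1b in naïve mice is left out because both groups were at or under that limit. Il1b is the highest value among the injured comparisons, at 2.09.

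Whether injury acted differently at the 2 ages was tested directly by an interaction term. edgeR called 0 of the 10 genes, where among all genes 0.0567% were called with a higher and 0.0819% with a lower log2 difference after injury in middle-aged than in young mice, and 4 had an unadjusted p under 0.05, as had 9.92% of all genes. These 4 were Casp1 (-1.12, SE 0.29, unadjusted p = 0.00160, edgeR adjusted p = 0.149), Il1a (-1.05, SE 0.34, adjusted p = 0.276), Nlrp3 (-1.51, SE 0.67, adjusted p = 0.475) and Il1rn (adjusted p = 0.208), each on the log2 scale as middle-aged minus young. DESeq2 called 1 of the 10, Il1rn. Il1b, whose naïve pools were near 0 at both ages, had an adjusted p of 0.792, so that a different injury effect on Il1b between ages was not shown.

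Ratios of counts within a pool do not depend on how libraries are scaled. Such ratios are not per length and are compared between pools only, since Il1rn has 5535 and Il1b 1907 exonic bases. Per kilobase of exon, Il1rn was at 6.76 ± 1.68 CPM against 0.84 ± 0.34 for Il1b in young injured pools, and at 16.5 ± 2.67 against 3.56 ± 0.23 in middle-aged injured pools. The ratio of Il1rn to Il1b counts in the injured pools, with 0.5 added to each count, was 29.7, 20.3 and 21.9 in young and 15.1, 11.5 and 13.5 in middle-aged mice. The middle-aged pools were all lower, by 0.83 on the log2 scale (middle-aged minus young -0.83, SE 0.20). The ratio of Il1b to Il1a was 0.0360, 0.0841 and 0.0469 in young and 0.180, 0.162 and 0.193 in middle-aged injured pools, a log2 difference of 1.77 (SE 0.37). The ratio of Il1b to Casp1 was 0.0484, 0.0868 and 0.0531 in young and 0.213, 0.232 and 0.203 in middle-aged injured pools, a log2 difference of 1.83 (SE 0.27). None of these 3 ratios overlapped between the ages, and each gave an exact 2-sided permutation p of 0.1, the smallest that 3 pools against 3 allow. All 3 contain Il1b, so they are not independent of its difference between the ages or of each other. The ratio of Il1r2 to Il1r1 was 0.0334, 0.0315 and 0.0199 in young and 0.0489, 0.0739 and 0.0284 in middle-aged injured pools, which overlapped (exact p = 0.3).

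Between naïve and injured pools, the ratio of Il1r2 to Il1r1 was lower after injury in young mice, from 0.0489 to 0.407 in naïve to 0.0199 to 0.0334 in injured pools without overlap (log2 difference -2.03, SE 0.97, exact p = 0.1). In middle-aged mice it overlapped (-0.38, SE 0.95, exact p = 0.8). Ratios with Il1b in naïve pools rest on 0 to 2 counts of Il1b and mostly reflect the 0.5 added, so they are not read. The 16 ratio tests run had a lowest Benjamini-Hochberg adjusted p of 0.2.

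**Figure D4:**
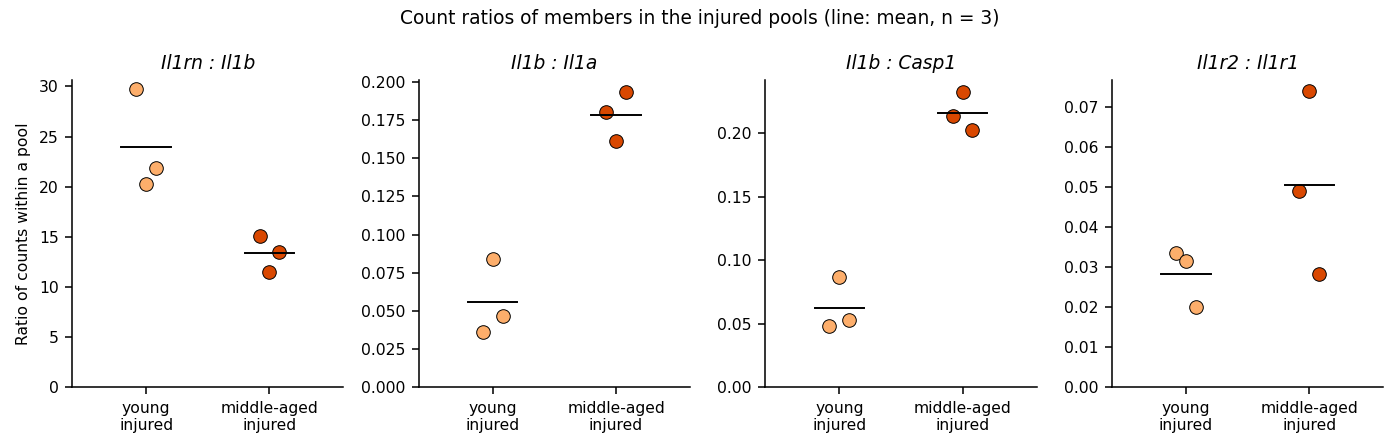
Ratio of counts within each injured pool, with 0.5 added to each count, for Il1rn to Il1b, Il1b to Il1a, Il1b to Casp1 and Il1r2 to Il1r1, on linear axes from 0. Points are pools and the line is the mean of 3. The young and middle-aged pools do not overlap in the first 3 panels and overlap in the last.

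Beyond the 10 genes, 52 further genes of the IL-1 family, inflammasome sensors, processing proteins and receptor signaling were listed, of which 43 passed the filter on low counts. In young mice 29 of the 43 were called higher and 2 lower after injury, and in middle-aged mice 32 higher and 2 lower, with 28 higher at both ages. Among all genes 28.3% were called higher and 26.3% lower in young mice, against 29.2% higher and 29.3% lower in the middle-aged and 24.5% higher at both ages. Of the 43, 5 had 3 counts or fewer in every pool of a naïve group and passed the filter through their injured groups: the IL-18 receptor chain Il18rap and the sensors Nlrc4, Naip1, Nlrp1a and Mefv. Others with few naïve counts, among them Nlrp1b, Naip6, Casp4 and Il18bp, would not have passed it through their naïve pools alone. The median log2 difference of all 43 was 1.42 in young and 1.42 in middle-aged mice, against 0.00054 and -0.032 for all genes. Of the 12 sensors listed, 9 were tested, and Nlrp6, Nlrp10 and Nlrp12 did not pass the filter. All 9 sensors tested were called higher at both ages. For Nlrc4, Naip1, Nlrp1a and Mefv a difference from naïve tissue was built into their being tested. The same held in part for Nlrp1b (1 to 4 counts in young and 0 to 14 in middle-aged naïve pools) and Naip6 (2 to 10 and 0 to 24). Naip2, a sensor of bacterial secretion proteins, rose by 4.49 (SE 0.32) in young and 3.70 (SE 0.30) in middle-aged mice on the log2 scale. Aim2, a sensor of cytosolic DNA, rose by 3.95 (SE 0.31) in young mice. Naip6 rose by 4.64 (SE 0.61) in young mice, but the Naip genes are near-identical copies among which the counting may have split reads.

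Of the 6 receptors tested, Il1rl2, the receptor for IL-36, rose by 4.70 in middle-aged mice (SE 0.30, edgeR adjusted p = 9.50e-09), the highest value among listed genes that were called at both ages with a mean log2 CPM of at least 1. Il1rapl1, a synaptic member of the receptor family, fell by 1.27 (SE 0.29) in young and by 1.66 (SE 0.30) in middle-aged mice. Of the 16 signaling genes, 10 were called higher and 1 lower in young and 12 higher and 1 lower in middle-aged mice. Nfkbiz, an NF-κB cofactor induced by IL-1, had the third highest value of that kind in middle-aged mice, at 3.53 (SE 0.43), whereas Irak1, a receptor kinase, rose by 0.70 (SE 0.14) and 0.57 (SE 0.14), and Rela, an NF-κB subunit, by 0.46 (SE 0.13) and 0.34 (SE 0.13), in young and middle-aged mice. The call of Rela in middle-aged mice (edgeR adjusted p = 0.0339) was lost in 3 other settings and in 6 fits with 1 pool left out.

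Between middle-aged and young injured pools, 1 of the 43 listed genes passed the threshold, where 0.240% of all genes were called higher and 0.908% lower. This was Il33, which encodes a nuclear cytokine of the IL-1 family that is released from damaged cells and binds the receptor ST2. Its counts were 1707, 2074 and 1304 in young naïve, 3208, 2081 and 3455 in middle-aged naïve, 3762, 3491 and 4572 in young injured and 6731, 8212 and 7527 in middle-aged injured pools. The middle-aged pools were higher in both states, by 1.07 on the log2 scale after injury (SE 0.15, edgeR adjusted p = 0.00405) and by 0.73 in naïve tissue (SE 0.15, adjusted p = 0.0174). The call after injury held in all other settings and pools left out, with adjusted p of at most 0.0338. Oligodendrocyte markers, which mark cells known to express Il33, were lower in the middle-aged injured pools (4 of 5 called lower), and their part was not tested. In naïve tissue 3 of the 43 were called higher and 0 lower by age, where 2.02% of all genes were called higher and 1.78% lower. Besides Il33 these were Aim2 (1.73, SE 0.31, edgeR adjusted p = 0.00718) and Casp12 (0.90, SE 0.21, adjusted p = 0.0305). Casp12 was named after its values were seen. The interaction term called 0 of the 43, and 5 had an unadjusted p under 0.05 (11.6%, near the 9.92% of all genes).

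**Figure D5:**
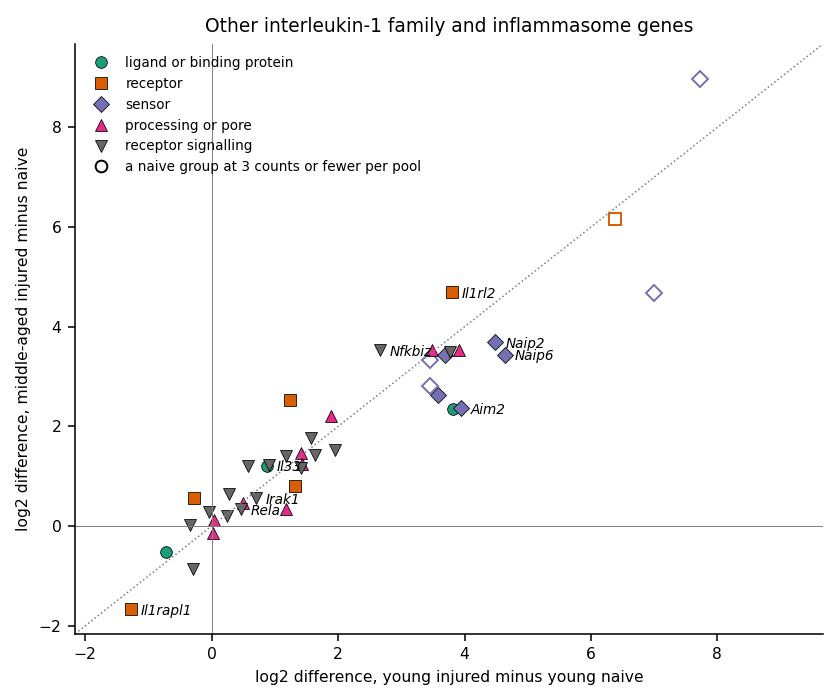
Log2 difference after injury in young (horizontal) and middle-aged mice (vertical) for the 43 listed genes tested, by class, with the dotted line at equality. Open symbols mark genes with 3 counts or fewer in every pool of a naïve group, whose fitted values are no measure of size. All sensors lie above 0 on both axes, and Il1rapl1 lies below 0 on both.

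Across the 12 pools the levels (log2 CPM) of the members that rose ran together and against Il18, as a description of pools that share the injury contrast. Pearson's r was 0.99 between Il1a and Casp1, 0.97 between Nlrp3 and Pycard and -0.92 between Il1b and Il18, and the lowest r of Il1r2 with any other member apart from Il18 was 0.47, with Il1r1. Among 13085 genes, the levels most like each member's were those of Rgl1, Kif3b and Map4k3 for Il1b (r = 0.98 for each), Csf3r, Siglec1 and Irf8 for Il1a (0.99 for each), and Chmp2b, Appl1 and Ktn1 for Il18 (0.98, 0.98 and 0.97). They were Smarcd2, Aff1 and Uap1l1 for Il1rn (0.99, 0.98 and 0.98), Dock2, N4bp2 and Ifi211 for Il1r1 (0.98 for each), and Apex1, Ethe1 and Ppie for Il1r2 (0.91, 0.91 and 0.91). For the processing genes they were Pml, Tep1 and Ticam2 for Nlrp3 (0.99 for each), Vrk2, Trim25 and Icam1 for Pycard (0.99 for each), Lyz2, Atf3 and Runx1 for Casp1 (0.997, 0.995 and 0.995), and Rpsa, Abhd17c and Cd300ld for Gsdmd (0.99 for each). Such values are common in these data: 1254 genes had r over 0.9 with Il1b and 1837 with Casp1, against 4 with Il1r2.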

How the data were processed

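RNA sequencing libraries of laser-captured spinal cord white matter (12 pools, 4 groups) were analysed, with groups and replicate numbers taken from the labels and ages and times from the study's methods. The methods state RNA integrity numbers over 8 and amplification of RNA during library building, which can widen the spread of low counts. Per the submitters' processing notes, reads were checked with FastQC 0.11.4 and mapped to GRCm38 with TopHat2 2.0.10 and Bowtie 1.1.2, and the authors deposited raw counts per gene from featureCounts. The annotation release and strand setting are not given in the sources used here.

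Gene symbols and exon lengths came from GENCODE (GRCm38), with 98.0% of identifiers given a symbol, and promoter windows from RefSeq. Counts were tested in R 4.3.3 with edgeR 4.0.16 (TMM, filterByExpr, glmQLFit and glmQLFTest, 1 coefficient per group, all 12 pools), with adjustment over 15866 genes and a threshold of 0.05. Alternatives were 4 scalings, removal of mitochondrial genes, 2 filters, DESeq2 1.42.0, a replicate block, only the 6 pools compared and each pool left out. The code was tested on simulated counts. Log2 CPM used a prior count of 2. Ratios of summed counts carry exact conditional 95% intervals, and ratios within a pool used exact 2-sided permutation tests (scipy 1.17.1). Nothing states that pools are separate experiments beyond their labels, so p-values measure the spread between these pools.

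The 10 members were always named. Of the 52 other genes, those past the threshold by age in injured mice or in the interaction were named, and, for each injury comparison, the 3 highest and 3 lowest called at both ages with a mean log2 CPM of at least 1. The members and lists were chosen with earlier results of these data known. A listed marker gene is not reported here and was left out of its list.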

Additional observations from a re-analysis of the deposited data

Results flagged for a closer look

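Counts of Gm14023 and Il1bos, which overlap members on the opposite strand, were outside the comparisons above, and each of these 2 was highest in an injured pool. Gm14023, sharing 222 of the 1974 exonic bases of Il1a, had 8 to 14 counts in young naïve, 6 to 28 in middle-aged naïve, 37 to 42 in young injured and 42 to 47 in middle-aged injured pools, its highest count being 47. Il1bos, sharing 25 of the 1907 exonic bases of Il1b, had 0 counts in every naïve and middle-aged injured pool and at most 4 in a young injured pool. With no strand setting given, these reads cannot be told apart from those of Il1a and Il1b, and Il1b and Il1a themselves had 73 to 87 and 380 to 541 counts in the middle-aged injured pools.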

How the results depend on the processing

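The counts of members called after injury were 9 in young mice in every setting and 9 or 10 in middle-aged mice (10 without a filter on low counts). For age in naïve mice the count of 3 became 0 with only the 6 pools compared, 4 with DESeq2 and without a filter (Nlrp3 added), and 1 to 4 with a pool left out (1 without young naïve replicate 2, 4 without middle-aged naïve replicate 3). For age in injured mice the count of 1 became 2 without a filter and with only the 6 pools compared, 0 with the replicate block (adjusted p of Il1b 0.0661), and 0 to 2 with a pool left out (2 without middle-aged naïve replicate 2, 0 without any injured pool or young naïve replicate 2). The interaction count of 0 became 1 (Il1rn) with DESeq2 and without a filter, and was 0 with each pool left out. These fits test different numbers of genes or pools, and the cause of each change was not tested.

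Replicate numbers did not pair the pools: same-numbered pools correlated at -0.11 to 0.15 after removal of group means (18 pairs, 2 over 0.1). The block changed no other count of members. For the members' and named genes' log2 differences, 575 of 590 values in other settings and 688 of 720 with a pool left out kept direction and side of the threshold.

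Directions turned for small differences that were never called. Il1r1 by age in injured mice (0.0071) became -0.053 with library totals, and -0.065 to 0.083 with a pool left out. With the block, Il1r2 by age in naïve mice became -0.063 and the interaction of Gsdmd 0.028. With a pool left out, age in naïve mice ranged from -0.099 to 0.30 for Il18, -1.01 to 0.77 for Il1r2, -0.072 to 0.98 for Pycard and -0.87 to 1.15 for Gsdmd, and the interaction from -0.52 to 0.53 for Pycard and -0.73 to 1.29 for Gsdmd.

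Among the log2 ratios, Il1b to Il1a and Il1b to Casp1 after injury in young mice (0.45 and 0.12) turned to -0.92 and -1.20 with a pseudocount of 2, and ranged from -0.14 to 1.25 and -0.40 to 0.99 with a pool left out. Il1rn to Il1b after injury in middle-aged mice (-1.32) ranged from -2.16 to 0.25, Il1r2 to Il1r1 after injury in middle-aged mice (-0.38) from -0.86 to 0.48 and by age in naïve mice (-0.89) from -1.75 to 0.039. The ratios between the injured groups kept their directions.

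Depth limits Il1b, Il1rn, Il1r2 and Nlrp3 in naïve tissue, where pools held few counts or none. Pools of 5 mice hide differences between mice, and 3 pools per group cannot give an exact p under 0.1. With 1 time after injury, a change in timing between ages and a change in level cannot be told apart.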
